A study of Mus musculus with 2 samples.

Results

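The 33 genes described here encode the enzymes and regulators of glycolysis and gluconeogenesis: 3 hexokinases, 1 glucose phosphate isomerase, 3 phosphofructokinases, 4 PFKFB enzymes, 2 aldolases, Tpi1, Gapdh, Pgk1, Pgam1, Bpgm, 3 enolases, 2 pyruvate kinases, the gluconeogenic Pck1, Pck2, Fbp1, G6pc and Pcx, 4 pyruvate dehydrogenase kinases and Pdha1. They were taken by symbol from the 32285 genes of the count tables, and all 33 were found. Single-cell RNA was sequenced from the kidneys of male mice, 8 to 10 weeks old, 14 days after 25 min of unilateral ischemia at 37 °C followed by reperfusion. PHDTiEC mice carried floxed alleles of Phd1, Phd2 and Phd3 (Egln2, Egln1 and Egln3) together with the Cdh5-CreERT2 transgene, whose promoter drives a tamoxifen-activated Cre in endothelial cells. Cre- mice were littermates without the transgene, and their label does not give their floxed alleles. Both genotypes received 4 intraperitoneal injections of tamoxifen, 3 mg per mouse, given after the ischemia. There was 1 library per genotype, from 1 mouse each, made from dissociated whole kidney after red cell lysis, so no difference between genotypes has a replicate check, and no p-value is given.

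Glycolysis converts glucose to pyruvate and yields ATP without oxygen, and gluconeogenesis runs the pathway backwards through its own enzymes at the irreversible steps. In the kidney the proximal tubule is known as the site of glucose synthesis, while distal segments and the medulla rely more on glycolysis. Many steps have more than 1 isoenzyme, with different affinity, feedback and tissue use. The PHD enzymes are oxygen sensors that mark the hypoxia-inducible factors (HIF) for destruction, and a large share of the glycolytic genes are known HIF targets.

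The Cre- library held 136004367 unique molecular identifiers (UMI, each 1 captured transcript molecule) and the library labelled PHDTiEC 146758812. After filtering, 8548 and 9309 barcodes were kept, with a median of 7500 and 7898 UMI, and 28 barcode sequences occurred in both libraries, against 11.7 if drawn at random. Cells were grouped by clustering without the members and pathway genes, and 25 classes, of which 21 were named from marker genes and 4 kept a cluster number, held 7665 and 8498 barcodes, with class medians of 1769 to 52239.5 UMI. A level is the class's UMI of a gene per 1000000 of its UMI (CPM), with exact Poisson 95% intervals, and a share is a gene's part of its isoenzyme family's UMI, with exact Clopper-Pearson 95% intervals. Both intervals cover counting error only. Values are given for the Cre- library first and the library labelled PHDTiEC second, and a ratio is the second over the first on the log2 scale. The mREC-like class, described below, is endothelial and takes its name from the study's medullary renal endothelial cells. It was named from Sox17, Jam2, Gja4, Gja5, Slc14a1, Fbln5 and Bmx, and where these cells lie in the kidney was not tested. In these cells Egln1 was at 67.5 and 229 CPM, Egln3 at 21.4 and 205 CPM, and Egln2 at 43.9 and 32.5 CPM. A 3′ count can come from outside a floxed exon, so these values do not check the genotype labels. The mitochondrial share of UMI was lower in the library labelled PHDTiEC in 25 of 25 classes.

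Hexokinases phosphorylate glucose as it enters the cell, and their use differed along the nephron. Hk1, the mitochondria-bound form found in most tissues, was highest in the intercalated-like (IC-like) class that also carried collecting duct (CD) markers, at 166 (159.9 to 172) and 174 (168 to 180) CPM. That class had median depths of 47921.5 and 52239.5 UMI, against 12434 and 11807 in IC-like cells, and no doublets were removed. Hk1 was at 122 and 156 CPM in distal convoluted tubule (DCT)-like cells, 103 and 117 CPM in thick ascending limb (TAL)-like cells, and 14.3 and 11.6 CPM in proximal tubule (PT)-like cells. Along the nephron its level thus ran from a distal maximum to a proximal minimum in both libraries. Hk2, the inducible form of muscle and growing cells, was highest in cluster 20, led by Ms4a2, Foxd1 and Wt1, at 264 (245 to 283) and 272 (254 to 290.3) CPM. Fibroblast-like cells followed at 203 and 226 CPM and cluster 18, led by the thin limb genes Slc14a2 and Fst, at 185 and 218 CPM.

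As a share of the 3 hexokinases, Hk1 made up 90.9% (87.5 to 93.6) and 89.8% (85.1 to 93.4) in IC-like cells and 65.5% and 69.2% in DCT-like cells. Hk2 made up 56.3% (54.4 to 58.1) and 59.7% (58.1 to 61.2) in TAL-like cells, 68.8% and 73.6% in cluster 18, 83.7% and 82.9% in injured PT-like cells and 89.7% and 87.3% in fibroblast-like cells. Neighbouring segments therefore led with different isoforms, and the shares of TAL-like and DCT-like cells did not overlap in either library. Hk3, known as the hexokinase of myeloid cells, was at 51.6 (39.8 to 65.8) and 56.1 (44.1 to 70.3) CPM in neutrophil-like cells, 23.6 and 27.4 CPM in macrophage-like cells, and 18.4 and 31.5 CPM in monocyte-like cells. It gave 22.7% and 23.2% of neutrophil-like hexokinase UMI, against 13.4% and 11.9% in macrophage-like cells. In the nephron classes Hk3 never passed 2.64 CPM, under its level in barcodes below 100 UMI, which hold free RNA (8.29 and 7.56 CPM).

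**Figure D1:**
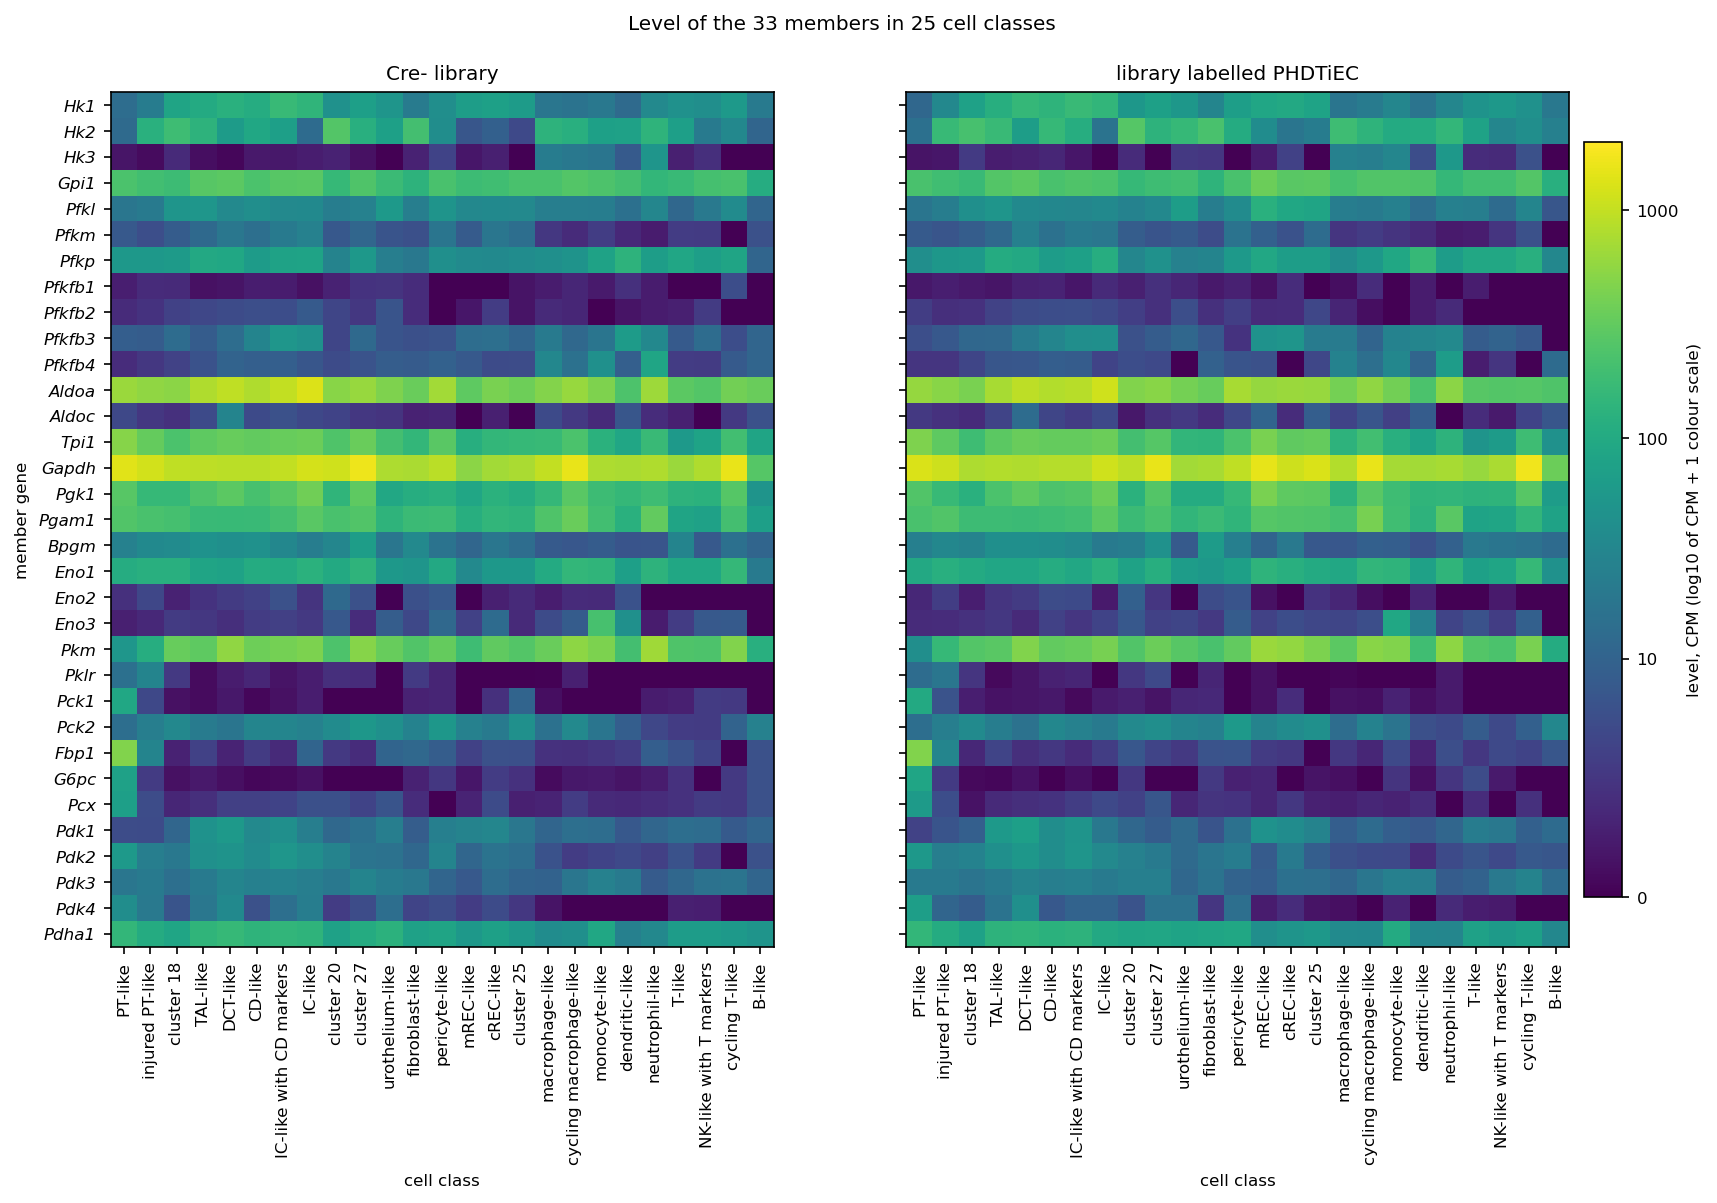
Level of each of the 33 members (rows, grouped by role) in the 25 cell classes (columns), as CPM on a log colour scale, with the Cre- library in 1 panel and the library labelled PHDTiEC in the other. The gluconeogenic rows Pck1, Fbp1, G6pc and Pcx peak in PT-like cells, Eno3 in monocyte-like cells, and Pgk1 moves from 88.9 to 431 CPM in mREC-like cells.

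Gpi1, which turns glucose phosphate into fructose phosphate, was seen in all 25 classes. In the Cre- library it was highest in DCT-like cells, at 294 (282 to 306) CPM, against 294.5 (283 to 306) in the other library, and lowest in B-like cells at 110.2 and 118 CPM. In the library labelled PHDTiEC mREC-like cells were highest, at 366 CPM. Phosphofructokinase makes the committed step of glycolysis. Its platelet form Pfkp was highest in dendritic-like cells, at 135 (119 to 151) and 160.0 (145 to 176) CPM, where it made up 88.7% and 90.8% of the family, and it also led in PT-like cells at 68.1% and 61.6%. The liver form Pfkl led in urothelium-like cells, at 58.6 (38.9 to 84.7) and 67.8 (50.8 to 88.7) CPM and 65.1% and 66.2% of the family. These urothelium-like values rest on 25 and 33 cells. The muscle form Pfkm stayed low, with its highest Cre- level in IC-like cells at 27.2 (20.97 to 34.6) CPM, against 19.1 (12.5 to 28.0) in the library labelled PHDTiEC, where DCT-like cells were higher at 26.1 CPM. The intervals of these classes overlap.

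PFKFB enzymes set the level of the metabolite that activates phosphofructokinase. Pfkfb3, the form with the strongest kinase activity, was highest in the Cre- library in dendritic-like cells, at 63.0 (52.7 to 74.7) CPM, followed by the IC-like class with CD markers at 54.0 (50.6 to 57.5) CPM. Pfkfb4 was highest in neutrophil-like cells, at 85.8 (70.4 to 104) and 65.8 (52.8 to 81.1) CPM. Pfkfb4 made up 70.6% and 64.2% of the family there and 57.5% and 53.5% in macrophage-like cells, whereas Pfkfb3 led in the tubule, with 78.4% and 75.1% in the IC-like class with CD markers. Leukocytes were not uniform, since dendritic-like cells carried 84.6% and 71.7% Pfkfb3. Pfkfb2, the heart form, peaked at 7.52 (4.46 to 11.9) CPM in IC-like cells of the Cre- library on 18 UMI, and at 5.13 CPM in the IC-like class with CD markers of the other. Pfkfb1, the liver form, was at most 1.55 CPM (0.799 to 2.70, 12 UMI) among Cre- classes with 10 UMI over both libraries, in injured PT-like cells.

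The steps from aldolase to enolase were dominated by 1 gene each. Aldoa, which splits fructose bisphosphate, was highest in IC-like cells, at 1327 (1281 to 1374) and 1141 (1085 to 1199) CPM, and lowest in dendritic-like cells at 239.7 and 234 CPM. Aldoc, the brain form, was highest in DCT-like cells, at 30.0 (26.3 to 34.1) and 13.9 (11.6 to 16.6) CPM. Tpi1, which interconverts the triose phosphates, was highest in PT-like cells, at 495 (482 to 508) and 452 (441 to 463) CPM, and was at 60.6 and 50.6 CPM in T-like cells. Gapdh, often used as a reference gene, ranged from 264 CPM in B-like to 1624 (1574 to 1675) CPM in cluster 27, led by the cell cycle genes Cenpf and Cdc25c, and in the library labelled PHDTiEC was highest in cycling T-like cells at 1684 (1577 to 1796) CPM. Gapdh thus varied several-fold across cell types.

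Pgk1, the first step that makes ATP, was highest in the Cre- library in IC-like cells, at 389 (364 to 415) CPM, where the other library held 356 (325 to 389) CPM. Pgam1, the next enzyme, was highest in cycling macrophage-like cells, at 346 (326 to 367) and 416 (393 to 439) CPM. Bpgm, a side branch known from red cells, was highest in cluster 27 in the Cre- library, at 66.8 (57.1 to 77.8) CPM, and in fibroblast-like cells in the other, at 64.2 (56.8 to 72.3) CPM. Eno1 was highest in cycling T-like cells, at 156 (119 to 200.1) and 161 (129 to 199) CPM, and led the family wherever it had 10 UMI, except in monocyte-like cells of the Cre- library. Eno2, the neuronal enolase, was highest in cluster 20, at 12.4 (8.65 to 17.3) and 9.29 (6.27 to 13.3) CPM, or 10.5% and 9.68% of the family. Eno3, the muscle enolase, had a narrow maximum in monocyte-like cells, at 215 (191 to 242) and 91.3 (72.8 to 113) CPM. It made up 59.8% (55.3 to 64.2) and 39.4% (32.8 to 46.3) of enolase UMI there and 36.9% and 25.9% in dendritic-like cells, against 4.31% and 3.91% in macrophage-like cells. Eno1 shares near-identical sequence with Eno1b, and Gapdh, Pgk1, Tpi1, Pgam1 and Aldoa have processed copies in the genome, so reads of these genes could have been split between copies.

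Pyruvate kinase closes glycolysis. Pkm, the form of most tissues, was highest in the Cre- library in neutrophil-like cells, at 676 (631 to 723) CPM, against 549 (509.9 to 590.1) CPM in the other, followed by DCT-like cells at 566 and 465 CPM. It was lowest in PT-like cells, at 53.8 and 41.97 CPM. Free RNA held Pkm at 288 and 295 CPM and was estimated at 10.5% and 8.69% of PT-like UMI. Part of the PT-like Pkm level and share can therefore come from free RNA. Pklr, the liver and red cell form, was seen mainly in the proximal classes, at 30.05 (26.3 to 34.2) and 18.96 (15.8 to 22.5) CPM in injured PT-like and 15.3 and 13.8 CPM in PT-like cells. Pklr made up 22.2% (19.3 to 25.2) and 24.8% (21.8 to 27.9) of pyruvate kinase UMI in PT-like cells and at most 0.136% in TAL-like and DCT-like cells. The proximal tubule therefore differed from the rest of the nephron in isoform as well as in level.

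**Figure D2:**
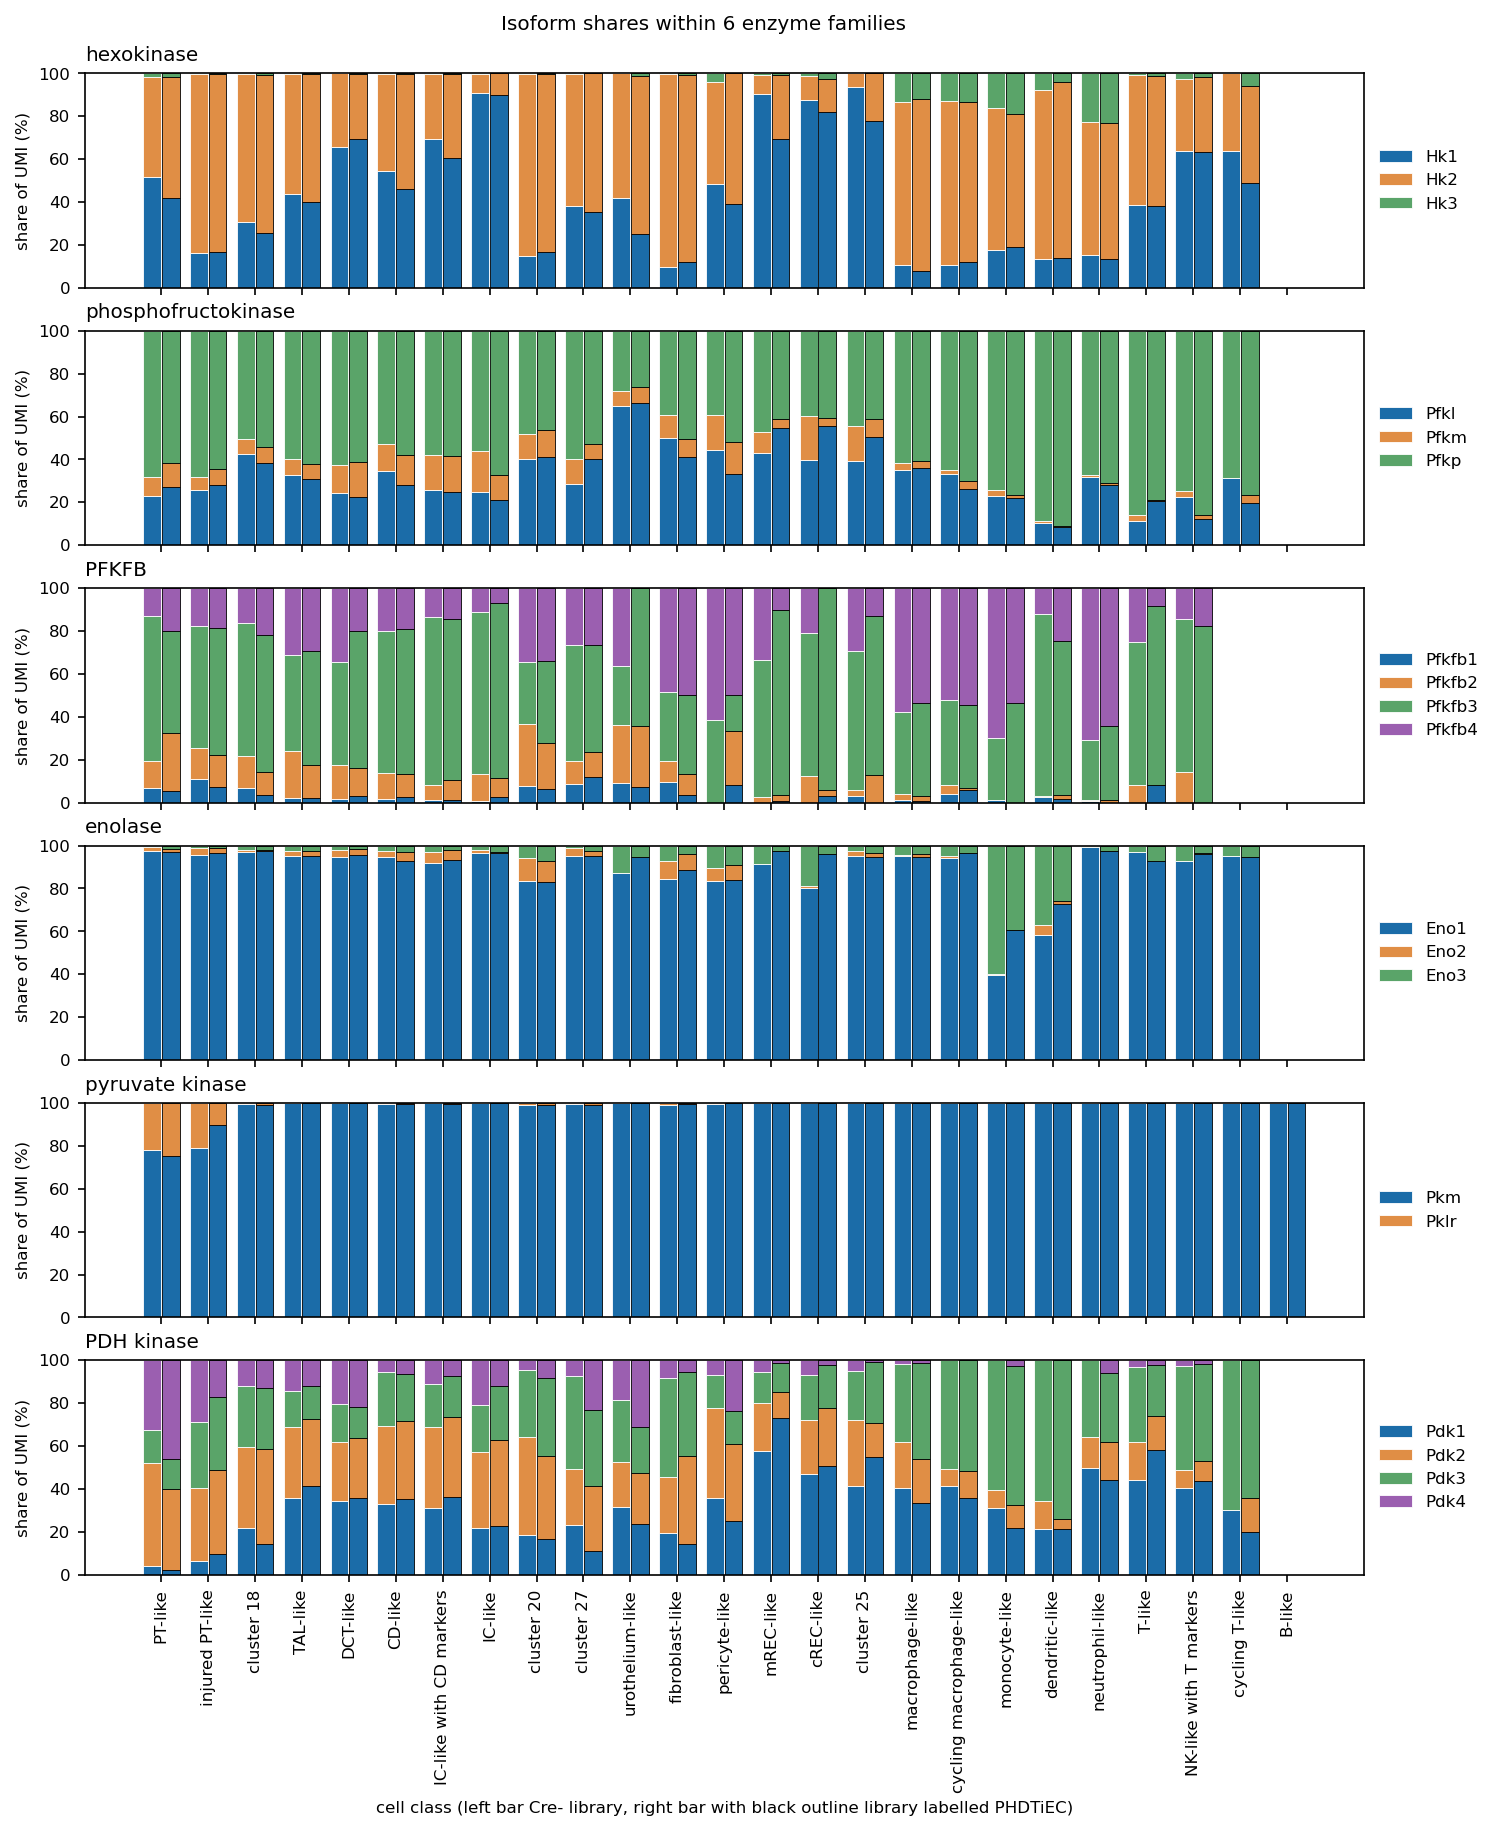
Share of each isoenzyme in its family's UMI, in percent, for 6 families and the 25 cell classes, with the Cre- library as the left bar and the library labelled PHDTiEC as the outlined right bar of each pair. Bars are left blank where a family has under 10 UMI. The plot shows Hk1 leading in IC-like cells, Pfkfb4 in neutrophil-like cells and Eno3 in monocyte-like cells of the Cre- library.

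Gluconeogenic enzymes were concentrated in PT-like cells. Pcx, which carries pyruvate to oxaloacetate, was at 72.2 (67.4 to 77.3) and 61.4 (57.5 to 65.5) CPM. Pck1, the cytosolic PEP carboxykinase, was at 91.6 (86.2 to 97.4) and 99.3 (94.3 to 105) CPM. Fbp1, which reverses the phosphofructokinase step, was at 477 (465 to 490.1) and 476 (465 to 487) CPM, and G6pc, which releases free glucose, at 75.7 (70.8 to 80.9) and 85.7 (81.0 to 90.5) CPM. Outside the PT-like class all 4 were under their free RNA level in each of the other 24 classes and in both libraries, which was 63.6 and 67.5 CPM for Fbp1 and 17.2 and 13.5 CPM for Pck1. A class takes up only a part of its UMI as free RNA, and that part times the free RNA level gives the level expected from free RNA alone. Fbp1 was above that expected level in 9 of these 24 classes in the Cre- library and 5 in the other, and Pck1 in 4 and 3. G6pc was above it in 6 and 9 of the classes. Pcx was above it in most, 19 and 15, though at no more than 6.28 and 6.65 CPM. When each cell was thinned to 1000 UMI, 37.3% and 37.7% of PT-like cells had an Fbp1 UMI, against 0.304% and 0.285% of CD-like cells (92.8% and 93.0% against 3.95% and 3.13% before thinning). Median depth was 20139 and 18418 UMI in PT-like and 16533 and 16329 in CD-like cells, and 1 PT-like cell was too shallow to thin. Pck2, the mitochondrial PEP carboxykinase, had another distribution, with its maximum in pericyte-like cells at 55.6 (40.7 to 74.1) and 59.95 (45.6 to 77.3) CPM and 14.8 and 14.6 CPM in PT-like cells. Pck1 thus made up 86.1% and 87.2% of the pair in PT-like cells and 1.08% and 1.81% in TAL-like cells.

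Pyruvate dehydrogenase kinases switch off the entry of pyruvate into the mitochondrial cycle, of which Pdha1 is the catalytic gate. Pdha1 was highest in the distal and proximal tubule, at 160.0 (151 to 169) and 144 (136 to 152) CPM in DCT-like and 153 and 154 CPM in PT-like cells. Pdk1 peaked in DCT-like cells, at 60.7 (55.3 to 66.4) and 71.7 (66.3 to 77.4) CPM, and Pdk3 in the Cre- library in the same class, at 31.2 (27.4 to 35.4) CPM against 29.2 (25.8 to 32.98) CPM. Pdk2 peaked in PT-like cells, at 59.1 (54.7 to 63.7) and 57.3 (53.5 to 61.3) CPM, as did Pdk4, the form known to respond to fasting, at 40.1 (36.6 to 44.0) and 69.8 (65.6 to 74.2) CPM. The leading kinase therefore changed from Pdk2 or Pdk4 in PT-like cells (48.1% and 37.8% Pdk2, 32.7% and 46.0% Pdk4) to Pdk1 in TAL-like cells (35.8% and 41.6%). Dendritic-like cells led with Pdk3, at 65.7% and 73.9%.

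Among leukocytes, T-like and B-like cells were low in several glycolytic members. T-like cells held Pgam1 at 83.7 and 80.7 CPM and Aldoa at 296 and 276 CPM, and macrophage-like cells held Pgam1 at 248 and 214 CPM and Aldoa at 491 and 409 CPM. Cycling macrophage-like cells were above macrophage-like cells for Gapdh (1552 and 1533 against 985 and 823 CPM), Pkm (542 and 523 against 346 and 296 CPM) and Pgk1 (287 and 286 against 159 and 134 CPM). Pdha1 was low in myeloid classes, at 38.7 and 37.3 CPM in macrophage-like and 34.1 and 32.2 CPM in neutrophil-like cells. In the stroma, fibroblast-like cells paired their high Hk2 with low Aldoa (355 and 340 CPM) and Tpi1 (154 and 143 CPM), and pericyte-like cells held Aldoa at 696 and 733 CPM. The free RNA estimate was 8.75% and 10.2% of UMI in fibroblast-like and 27.7% and 40.1% in pericyte-like cells. Aldoa in free RNA was at 689 and 655 CPM. In the Cre- library mREC-like cells were at 302 CPM of Aldoa, 189 CPM of Pkm and 34.9 CPM of Eno1. In the same library cREC-like cells were at 433, 314 and 56.4 CPM. The Cre- free RNA estimate was 9.41% of UMI in mREC-like and 50.01% in cREC-like cells. Cre- free RNA held Pkm at 288 CPM and Eno1 at 76.1 CPM. Part of these cREC-like levels can therefore come from free RNA. Whether the order of these classes holds without it was not tested.

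Injured PT-like cells, which carried the injury genes Havcr1 and Krt20, differed from PT-like cells of the same library at single steps of the pathway. These classes were separated by clustering on other genes, and the comparison lies within a library. Of 32 members with at least 10 UMI in the Cre- library, 3 were at least 2-fold higher (14.2% of all genes tested were) and 5 at least 2-fold lower (9.05% of all genes). In the library labelled PHDTiEC, 4 of 33 were higher (15.4% of all genes) and 6 lower (8.45% of all genes). The member medians were -0.09 and 0.04 on the log2 scale and those of all genes 0.19 and 0.21, so the members as a group did not move together, and single enzymes did.

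Hk2 was at 12.9 CPM in PT-like and 123 CPM in injured PT-like cells of the Cre- library (log2 ratio 3.25, 3.00 to 3.51) and at 15.6 and 164 CPM in the other (3.40, 3.19 to 3.61). Pkm was at 53.8 and 114 CPM (1.08) and at 41.97 and 161 CPM (1.94), and Eno2 at 1.84 and 3.998 CPM (1.12), with a ratio of 1.13 in the other library. Under TMM scaling, which lowers all of these ratios, Pkm was at 0.88 and 1.72 and Eno2 at 0.92 and 0.91, so Eno2 was past 2-fold in neither library and Pkm in 1. Free RNA held Pkm at 288 and 295 CPM, above both classes, and can add to the Pkm level of each. Of the 5 gluconeogenic members, 4 were lower in both libraries. Fbp1 was at 477 and 29.4 CPM in the Cre- library (-4.02) and its ratio was -3.93 in the other. The ratios were -4.47 and -4.07 for Pck1, -4.81 and -5.01 for G6pc, and -3.88 and -3.61 for Pcx. In injured PT-like cells, free RNA alone would give 7.03 and 8.09 CPM of Fbp1, against the 29.4 and 31.1 CPM seen, and 1.90 and 1.61 CPM of Pck1, against 4.13 and 5.93 CPM. The fifth, Pck2, stayed under 2-fold on the higher side, with ratios of 0.74 (0.43 to 1.04) and 0.75 (0.45 to 1.05). Pdk2 was also lower, by ratios of -1.27 and -1.21, while Pdk4 passed 2-fold in the library labelled PHDTiEC alone (69.8 and 10.8 CPM, -2.69, against 40.1 and 20.8 CPM, -0.95). Hk1 passed 2-fold in that library as well (1.52, against 0.73). The difference between libraries in these ratios was not tested.

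**Figure D3:**
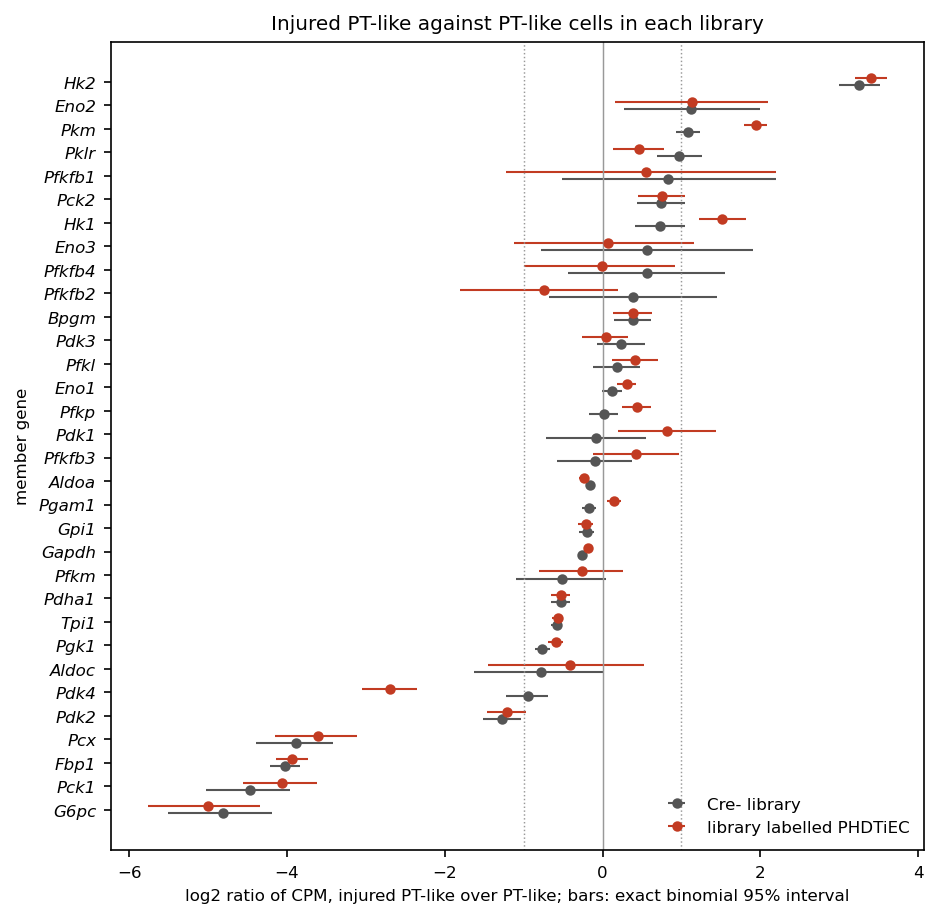
Log2 ratio of injured PT-like over PT-like cells for each member with at least 10 UMI, in each library, with exact 95% counting intervals and lines at 2-fold. Hk2 and Pkm lie above the upper line and Fbp1, Pck1, G6pc and Pcx below -3 in both libraries.

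The Cre- to PHDTiEC comparison sets the levels of these genes in the libraries side by side in each cell type. With 1 mouse per genotype, an effect of genotype cannot be told apart from other differences between the mice or libraries. More members passed 2-fold in mREC-like cells than in any of the other 24 classes. These cells were led by Sox17, Igfbp3, Lgr5 and Bmx with 10 of 10 endothelial markers seen, and numbered 186 and 228. Of the 24 members with at least 10 UMI there, 12 were at least 2-fold higher in the library labelled PHDTiEC and 0 at least 2-fold lower. Of all 11670 genes with at least 10 UMI, 4.1% were that much higher and 4.11% lower. The member median was 1.00 on the log2 scale, against 0.01 over all genes. The 9 members with under 10 UMI were Hk3, Pfkfb1, Pfkfb2, Eno2, Pklr, Pck1, G6pc, Pcx and Pdk4, which include the gluconeogenic Pck1, G6pc and Pcx.

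Every step from glucose entry to pyruvate had a member past 2-fold or at its edge. Hk2 was at 6.75 (3.49 to 11.8) and 38.8 (31.6 to 47.3) CPM, a ratio of 2.52 (1.65 to 3.52) on 12 and 99 UMI. Free RNA alone would give 4.93 and 3.45 CPM of Hk2 in these cells, against the 6.75 and 38.8 CPM seen. The ratio was 4.22 with free RNA subtracted and past 2-fold in 15 of 15 processing settings. Gpi1 was at 182 (162 to 203) and 366 (343 to 390.1) CPM, a ratio of 1.01 (0.83 to 1.197). Pfkl was at 33.8 (25.8 to 43.4) and 122 (109 to 137) CPM (1.86, 1.46 to 2.28). Pfkp, the other main phosphofructokinase of these cells, was closer, at 37.1 (28.7 to 47.2) and 92.9 (81.5 to 106) CPM (1.32, 0.92 to 1.74). Pfkfb3 was at 14.1 (9.10 to 20.8) and 46.7 (38.7 to 55.8) CPM (1.73, 1.10 to 2.41). Aldoa, at 302 (277 to 328) and 601 (571 to 632) CPM, lay just under 2-fold (1.00, 0.85 to 1.14), and Gpi1 just over it. Aldoc had 0 UMI in the Cre- library and 27 UMI (10.6 CPM) in the other, which with the 0 taken as 3 counts is a ratio of 2.65. Over 14 processing settings that ratio ran from 1.95 to 4.45.

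The later steps followed. Tpi1 was at 117 (102 to 134) and 436 (411 to 462) CPM (1.90, 1.68 to 2.12). Gapdh was at 525 (492 to 559.6) and 1497 (1450 to 1545) CPM (1.51, 1.41 to 1.62). Pgk1 had the largest ratio after Aldoc and Hk2, from 88.9 (75.6 to 104) to 431 (405 to 457) CPM (2.28, 2.03 to 2.53). Pgam1 was at 117 and 269.8 CPM (1.21, 0.98 to 1.44), Eno1 at 34.9 (26.7 to 44.7) and 140.4 (126 to 156) CPM (2.01, 1.62 to 2.42), and Pkm at 189 (169 to 210.3) and 633 (603 to 665) CPM (1.74, 1.57 to 1.92). In each of these cases the counting intervals of the 2 libraries were apart. Pgk1, Tpi1, Gapdh, Pgam1, Eno1 and Pkm were past 2-fold in 15 of 15 processing settings, Gpi1 in 10 of 15 and Aldoa in 5 of 15.

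The other 12 tested members, Aldoa among them, stayed under 2-fold. Hk1 was at 68.6 and 89.8 CPM (0.39), Pfkm at 7.88 and 9.41 CPM (0.26), Pfkfb4 at 7.31 and 5.49 CPM (-0.41), Bpgm at 11.3 and 10.6 CPM (-0.09) and Eno3 at 3.38 and 3.53 CPM (0.06). Pck2 was at 27.6 and 28.6 CPM (0.05) and Fbp1 at 3.38 and 2.74 CPM, under the 5.99 and 3.46 CPM expected from free RNA alone. Among the kinases, Pdk1 was at 29.3 and 47.1 CPM (0.69, 0.20 to 1.18), Pdk2 at 11.3 and 7.84 CPM (-0.52) and Pdk3 at 7.31 and 8.63 CPM (0.24). Their target Pdha1 was at 56.3 and 41.6 CPM (-0.44, -0.84 to -0.03).

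Isoform use in mREC-like cells differed between the libraries for the hexokinases and the PFKFB family. The Hk1 share was 90.4% (84.1 to 94.8) and 69.4% (64.1 to 74.3) and the Hk2 share 8.89% (4.68 to 15.01) and 30.0% (25.1 to 35.3). Pfkl made up 42.9% (34.5 to 51.5) and 54.5% (50.3 to 58.6) of phosphofructokinase, and Pdk1 57.8% (46.9 to 68.1) and 73.2% (65.7 to 79.8) of its family, both with overlapping intervals. Pfkp and Pfkl were near level in the Cre- library, at 66 and 60 UMI. Pfkfb3 made up 64.1% (47.2 to 78.8) and 86.2% (79.3 to 91.5) of its family, with intervals just apart. Hk1 still led the hexokinases in both.

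**Figure D4:**
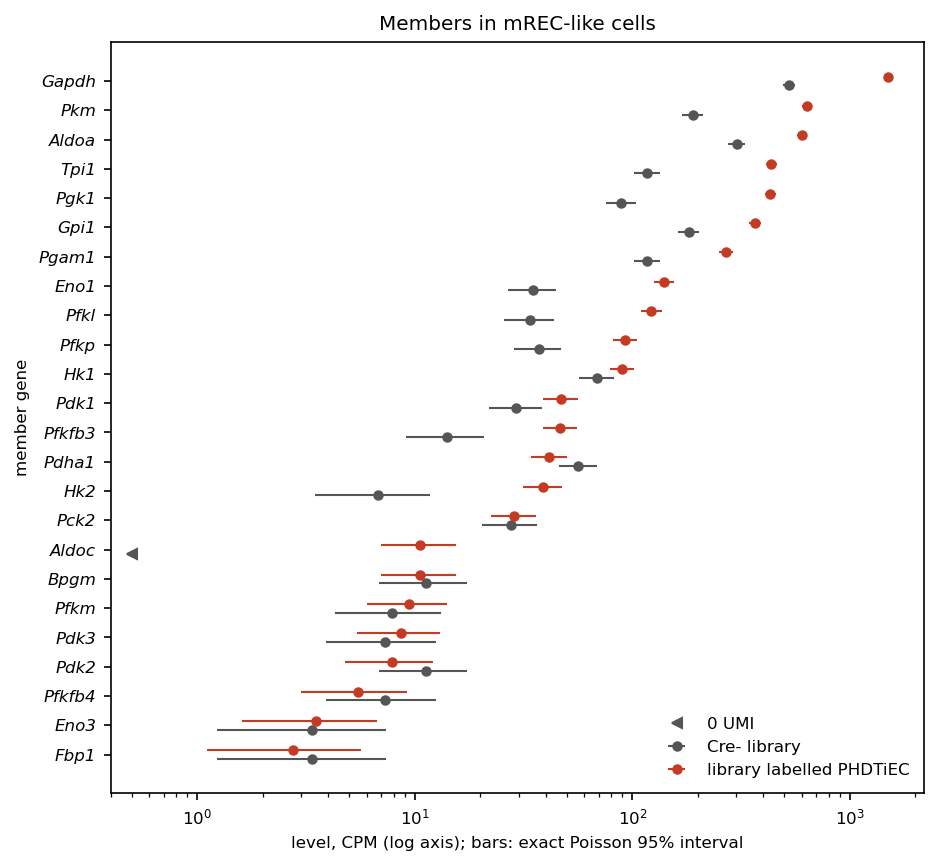
Level of the 24 members with at least 10 UMI in mREC-like cells, as CPM on a log axis, with exact Poisson 95% intervals, for the Cre- library and the library labelled PHDTiEC (a triangle marks 0 UMI). The members from Hk2 to Pkm lie to the right in the library labelled PHDTiEC, up to 431 against 88.9 CPM for Pgk1, while Hk1, Bpgm, Pck2 and the PDH kinases stay within 2-fold.

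Ranked among the 25 classes, mREC-like cells moved from rank 24 to rank 1 for Pgk1, 19 to 1 for Gpi1, 12 to 1 for Pfkl, 22 to 1 for Pkm, 21 to 2 for Tpi1, and 24 to 4 for both Gapdh and Eno1. The exception was Hk2, which moved from rank 24 to 19 and stayed under its level in most of the tubule and stroma. The UMI of 16 core glycolytic genes made up a median of 0.160% of a cell's UMI in the Cre- library and 0.214% in the other, while the 90% points were 0.255% and 1.03%. In the library labelled PHDTiEC 100 of 228 cells (43.9%) lay above the Cre- 90% point. The same measure, each class against its own Cre- 90% point, was not particular to mREC-like cells. It gave 63 of 212 cREC-like cells (29.7%) and 47 of 97 cells of cluster 25 (48.5%), both described below. The 10% points of mREC-like cells lay closer, at 0.0812% and 0.0882%. TAL markers in this class summed to 228 and 38.8 CPM with 6 and 5 of 6 seen. Free RNA, estimated from the markers of other cell types, was 9.41% and 5.12% of the class's UMI. With that free RNA subtracted, 13 members were at least 2-fold higher and the median was 1.195. The ratios were then 2.52 for Pgk1 and 2.14 for Tpi1, both larger than without the subtraction. With mitochondrial and ribosomal genes left out of the totals, 11 members were higher. Of the 7 members on the study's own gene list (Gpi1, Pfkl, Aldoa, Tpi1, Pgk1, Eno1 and Pkm), 6 passed 2-fold with a median of 1.86, but that list was chosen on these libraries and is not independent evidence. Of the other 17 tested, 6 passed (Hk2, Pfkp, Pfkfb3, Aldoc, Gapdh and Pgam1), with a median of 0.26. These were measured in the same libraries and are not independent evidence either.

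Of 28 other genes of the pathway, 20 had at least 10 UMI in mREC-like cells, and 5 were at least 2-fold higher and 0 lower. Ldha, which turns pyruvate into lactate, was at 294 and 749 CPM (1.35, 1.21 to 1.49). Slc2a1, the main glucose transporter of endothelium, was at 12.4 and 94.1 CPM (2.93), and Slc16a3, a lactate exporter, at 7.31 and 96.1 CPM (3.72). Eno1b rested on 0 UMI in the Cre- library and 10 UMI in the other. In PT-like cells 0 of 23 such genes passed 2-fold in either direction, with Ldha at 578 and 536 CPM.

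Promoters of the members were searched for the core letters of the HIF response element, ACGTG or its reverse complement CACGT, because many members were higher together. In the RefSeq promoter windows (GRCm38.p6, 250 bases before to 50 after a gene's start; 33 of 33 members matched), 7 of the 12 members past 2-fold held it in a window: Aldoc, Gapdh, Hk2, Pfkfb3, Pgam1, Pgk1 and Pkm. So did 5 of the 12 tested members under 2-fold (Aldoa, Hk1, Pdk2, Pdk3 and Pfkm) and 3 of the 9 with under 10 UMI (Hk3, Pcx and Pfkfb2), against 21.8% of 27025 genes and 19.6% of all 32851 windows. With GCGTG allowed as well, the counts were 10 of 12, 10 of 12 and 5 of 9, against 46.7% of genes, and the forms can overlap. A match is a description of the letters, not a bound site. Windows with 2 or 3 matches were not limited to members past 2-fold. Hk1, Pdk2 and Pfkm, under 2-fold, and Pcx and Pfkfb2, under 10 UMI, had them too. Eno1, Gpi1, Pfkl, Pfkp and Tpi1, all past 2-fold, had 0 in every window. The 250 bases upstream of 3 members past 2-fold, each with 2 matches, are shown 5′ to 3′ on the gene's strand, with the matches in capitals. They belong to Pgk1 (chrX:106186850-106187099, + strand, matches starting 150 and 131 bases before the start), Hk2 (chr6:82774455-82774704, - strand, 226 and 52 bases before) and the downstream start of Pfkfb3 (chr2:11502091-11502340, - strand, where the matches at 53 and 52 bases overlap as CACGTG).
Pgk1: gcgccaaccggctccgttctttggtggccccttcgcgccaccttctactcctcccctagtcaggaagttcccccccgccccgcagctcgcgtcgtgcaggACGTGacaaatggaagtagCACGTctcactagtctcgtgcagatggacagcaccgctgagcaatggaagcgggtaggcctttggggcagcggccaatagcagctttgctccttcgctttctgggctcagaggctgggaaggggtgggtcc
Hk2: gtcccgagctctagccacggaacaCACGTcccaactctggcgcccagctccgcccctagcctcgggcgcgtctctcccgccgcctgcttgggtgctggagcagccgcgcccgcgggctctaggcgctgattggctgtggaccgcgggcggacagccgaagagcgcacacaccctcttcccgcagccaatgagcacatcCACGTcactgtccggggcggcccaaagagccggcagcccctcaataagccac
Pfkfb3: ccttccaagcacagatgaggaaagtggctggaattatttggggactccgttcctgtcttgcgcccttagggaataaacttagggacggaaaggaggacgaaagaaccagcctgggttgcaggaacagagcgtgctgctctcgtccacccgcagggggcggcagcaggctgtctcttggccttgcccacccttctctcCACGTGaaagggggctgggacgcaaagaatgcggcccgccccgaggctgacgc

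cREC-like cells, cortical capillary endothelium led by Aplnr, Gpihbp1, Kdr and Plvap (127 and 212 cells, median 3951 and 3412.5 UMI), gave a count that depended on the processing. Of 21 members tested, 5 were at least 2-fold higher (4.41% of all genes) and 2 lower (7.95% of all genes), and the median was 0.68 against -0.02 over all genes. With free RNA subtracted 11 of 20 were higher and the median was 1.12, and without the highest 5% of doublet scores 9 of 20 were higher and 0 lower. Pfkl was at 35.7 (25.3 to 49.0) and 92.3 (76.0 to 111) CPM (1.37, 0.83 to 1.94), Tpi1 at 153 and 309 CPM (1.01, 0.74 to 1.29), Pgk1 at 128 and 301 CPM (1.24, 0.95 to 1.53) and Eno1 at 56.4 and 121 CPM (1.10, 0.66 to 1.56). Pfkfb3 was at 15.03 and 51.1 CPM (1.77, 0.95 to 2.66). The members on the lower side were Pfkm (20 and 7 UMI, -1.70) and Eno3 (14 and 6 UMI, -1.41), both on few molecules. Gapdh at 692 and 1110.3 CPM (0.68), Pkm at 314 and 584 CPM (0.90) and Aldoa at 433 and 644 CPM (0.57) were higher by less than 2-fold. Markers of other segments differed between the libraries in this class. TAL markers summed to 1403 and 256 CPM, DCT markers to 316 and 19.8 CPM, and the free RNA estimate was 50.01% and 15.1% of UMI. Subtracting it, up to a limit of 50% of a class, raised the ratio of Tpi1 to 3.18, of Pgk1 to 2.57, of Gapdh to 1.11 and of Aldoa to 1.86, while that of Pkm stayed at 0.90.

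Cluster 25, led by Higd1b, Ndst3 and Trarg1, carried endothelial markers at 4429 and 4481 CPM and pericyte markers at 7768 and 10016 CPM in 88 and 97 cells. Its median depths were 22833 and 19776 UMI, no doublets were removed, and it is left unnamed. Of 25 members tested, 7 were at least 2-fold higher (4.05% of all genes) and 2 lower (4.29% of all genes), with a median of 0.73 against 0.00 over all genes. Hk2 was at 4.37 and 23.2 CPM (9 and 46 UMI, 2.41, 1.36 to 3.62), Pgk1 at 109 and 295 CPM (1.44, 1.21 to 1.67), Pfkl at 34.5 and 83.2 CPM (1.27, 0.86 to 1.69), Tpi1 at 160.3 and 330.3 CPM (1.04, 0.85 to 1.24) and Pfkfb3 at 10.7 and 22.7 CPM (1.09, 0.32 to 1.89). Aldoc had 0 and 17 UMI, a ratio of 2.56 with the 0 taken as 3 counts (lower limit 2.10), and Eno3 3 and 8 UMI. The lower members were Pck1 (22 and 0 UMI) and Fbp1 (11 and 0 UMI), and single cells gave 72.7% and 54.5% of those Cre- UMI. PT markers summed to 87.9 and 18.2 CPM in this class. The free RNA estimate, taken from the tubular marker lists, went the other way, at 7.86% and 16.4% of UMI. With free RNA subtracted the ratio of Pck1 was -2.48, Fbp1 fell under 10 UMI, Hk2 was at 5.76, and 6 members were higher and 3 lower. Of 21 members tested in mREC-like cells, cREC-like cells and cluster 25 alike, Pfkfb3, Pfkl, Pgk1 and Tpi1 (4 of 21) were at least 2-fold higher in all 3, as were 31 of 10439 genes (0.297%), and 0 members were lower in all 3, against 0.0862% of genes. Ldha was at 306 and 609 CPM (0.99) in cREC-like cells and 363 and 667 CPM (0.88) in cluster 25. Of the other pathway genes, 2 of 19 were higher and 3 lower in cREC-like cells, and 3 of 19 higher and 1 lower in cluster 25, with Slc2a1 and Slc16a3 higher in both.

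**Figure D5:**
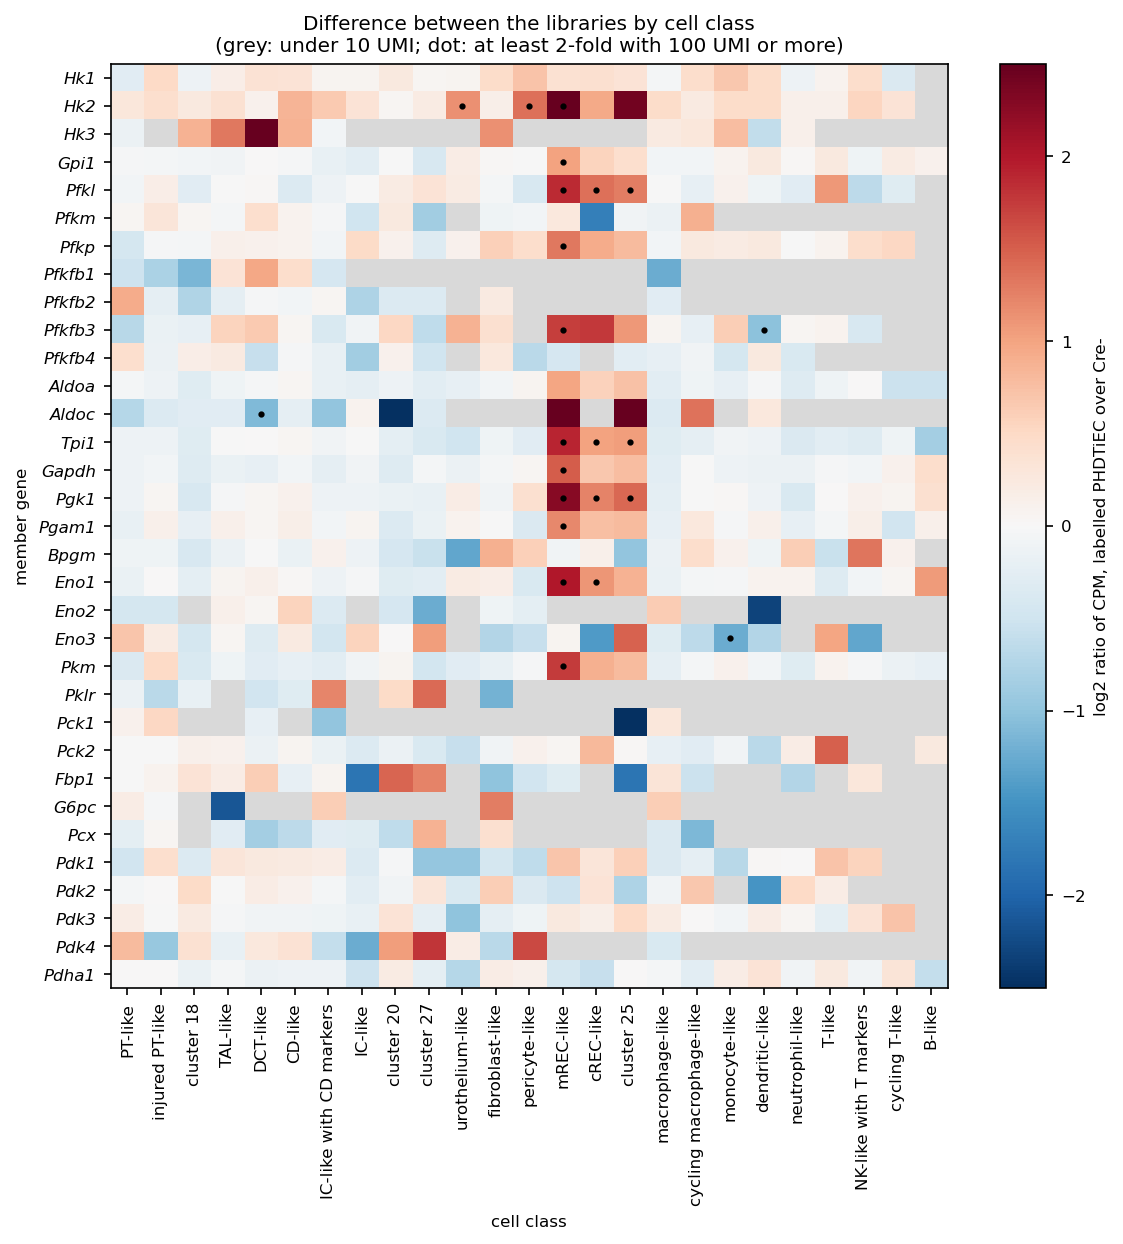
Log2 ratio of the library labelled PHDTiEC over the Cre- library for the 33 members (rows) in the 25 cell classes (columns), grey where a member has under 10 UMI over both libraries and with a dot where the ratio is at least 2-fold on at least 100 UMI. The dots gather in mREC-like cells, cREC-like cells and cluster 25, and 5 lie in other classes.

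No member passed 2-fold between the libraries in the proximal classes. In PT-like cells, which expressed all 33 members at 10 UMI or more, 0 were at least 2-fold higher (3.01% of all genes) and 0 lower (2.44% of all genes), with a median of -0.11. Pdk4 was the closest of the abundant members, at 40.1 and 69.8 CPM (0.80, 0.64 to 0.96). In injured PT-like cells 0 of 32 were higher (4.62% of all genes) and 0 lower (2.02% of all genes), with a median of -0.01. Of the other pathway genes, 2 of 24 were higher there, Pgam2 and Slc16a3.

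Over the 22 classes other than mREC-like cells, cREC-like cells and cluster 25, member medians ran from -0.26 to 0.12, and those of all genes from -0.03 to 0.12. Of 569 pairs of a member and a class, 19 were at least 2-fold higher (4.28% of all gene and class pairs) and 17 lower (3.44% of all pairs). Only 5 of these had 100 UMI or more. Aldoc in DCT-like cells was at 30.0 and 13.9 CPM (-1.11, -1.44 to -0.79), the class of its highest level. Eno3 in monocyte-like cells was at 215 and 91.3 CPM (-1.24, -1.61 to -0.88), and Pfkfb3 in dendritic-like cells at 63.0 and 31.2 CPM (-1.02, -1.43 to -0.61). Both are likewise the classes where the Cre- library had its highest value. Hk2 was the member on the higher side, in urothelium-like cells at 73.2 and 163 CPM (1.15, 0.60 to 1.73) and in pericyte-like cells at 41.1 and 107 CPM (1.38, 0.81 to 1.98). Single cells gave 31.4% of the Cre- Hk2 UMI in urothelium-like cells and 29.4% and 30.5% in pericyte-like cells, and Hk2 in free RNA was at 52.4 and 67.4 CPM. The ratio of Pgk1 ranged from -0.41 to 0.40 over these 22 classes, and Tpi1 from -0.85 to 0.05.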

How the data were processed

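Single-cell libraries (Chromium Single Cell 3′) from whole kidney were sequenced from 1 Cre- and 1 PHDTiEC sample. The authors aligned and counted them, with Cell Ranger and mm10 named in the submitters' processing notes, and deposited unfiltered UMI counts per gene and barcode, not normalized and not divided by length. No per-sample column was left unused (0). The members, gene lists and classes were chosen with earlier results of these data known.

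Barcodes with 500 to 100000 UMI, at least 200 genes and at most 50% mitochondrial UMI were kept (a complexity minimum of 0.8 would keep 8468 and 9233). Counts were scaled to 10000, and 2000 variable genes without the members, 20 principal components and resolution 0.8 gave 31 clusters (Seurat 5.3.0, R 4.3.3). The 25 classes were set from marker lists. Clusters 2, 14 and 29 matched none and were left out of the comparisons. Raw UMI were summed per class and library, over all genes and barcodes of the class, and scaled to 1000000. Ratios needed 10 UMI over both libraries, took a count of 0 as 3, and were called past 2-fold without a test, since each genotype had 1 library. Every member was accounted for, with full values in its highest class and wherever it passed 2-fold with 100 UMI. Cells were thinned to 1000 UMI for shares of cells. Alternatives used edgeR 4.0.16 (TMM), scanpy 1.11.5 and scipy 1.17.1 (Python 3.11.15). Single values of some other pathway genes are not reported here. No doublets were removed, since Scrublet's threshold marked 0 barcodes. The sums and ratios were tested on simulated data.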

Additional observations from a re-analysis of the deposited data

Results flagged for a closer look

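Pgam1 was flagged because its ratio between injured PT-like and PT-like cells had opposite signs in the 2 libraries. In the Cre- library it was at 256 CPM in PT-like and 227 CPM in injured PT-like cells, a log2 ratio of -0.17 (-0.26 to -0.08). In the library labelled PHDTiEC it was at 226 and 250 CPM, a log2 ratio of 0.14 (0.06 to 0.23). Both intervals leave out 0 but cover counting error only. With 1 library per genotype the difference was not tested, and both ratios are far under 2-fold.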

How the results depend on the processing

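No paired analysis was possible because each genotype had 1 library and the labels give no replicate numbers. In mREC-like cells 11 to 14 members were at least 2-fold higher over 15 settings, and the median ran from 0.48 to 1.42. It was 0.56 at resolution 0.4 and 0.48 with no UMI minimum. In cREC-like cells the median was 1.12 and 11 members were higher with free RNA subtracted. With the top 5% of doublet scores removed, 9 were higher and 0 lower, and 1, 4 and 0 were lower with the mean over cells, no UMI minimum and at least 50 UMI. In cluster 25, 1 member was lower without the top doublet scores, with members kept as variable genes, at resolution 1.2 and without the top cell of each gene, 4 with the mean over cells and with no UMI minimum, and 0 with at least 50 UMI. For injured over PT-like cells in the Cre- library, 6 members were higher with 30 components, without the top doublet scores and with free RNA subtracted, 5 with members kept as variable genes, 1 under TMM and 7 with the mean over cells. The sign turned for Fbp1 in cluster 25 (1.28 with members kept as variable genes, 1.29 at resolution 1.2), for Eno1 in B-like cells (-0.15 with 30 components) and for Hk3 in injured over PT-like cells of the Cre- library (0.0082 with 30 components). The cause was not tested. The leading isoform was the same in 3588 of 3618 comparisons of a family, class, library and setting. The doublet caller's own threshold marked 0 barcodes, so that alternative was replaced by the top 5% of scores, chosen after seeing the data.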
